A study of Arabidopsis thaliana with 24 samples.

Results

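The levels of 6 wall growth genes of *Arabidopsis thaliana* were followed through seed germination: the expansin genes *EXPA8* (AT2G40610) and *EXPA4* (AT2G39700), the xyloglucan endotransglucosylase/hydrolase genes *XTH19* (AT4G30290) and *XTH33* (AT1G10550), the xyloglucan glucan synthase gene *CSLC04* (AT3G28180) and *EXORDIUM* (*EXO*, AT4G08950). They are 6 of the 13286 genes that an array probe set with a single annotated gene measured, and each had 1 such probe set. The genes were picked by name for their role in wall growth, with earlier results of these data known. The 24 arrays formed 8 groups of 3. Wild-type seed of the accession Col-0 (WT) and seed of *Attim17-1* (tim17-1), a mutant named for a channel subunit of the protein import machinery of the inner mitochondrial membrane, were each collected dry (0 h), after 48 h of dark stratification at 4 °C (48 h S), and after stratification plus 6 h (6 h SL) or 24 h (24 h SL) of continuous light at 22 °C. The seed that was stratified was plated on MS medium after surface sterilisation. Whether the seed collected dry was also sterilised is not known here. The dry seed had ripened for 15 days by the design text and for 14 days by the protocol text. A description field calls the WT dry seed freshly harvested, and that of the WT 6 h SL samples speaks of stratification, so groups follow the sample titles. The labels do not say how the mutant allele changes its gene, whose transcript is not analysed here, nor whether the 3 samples of a group were separate seed lots. The p-values therefore rest on the spread among these samples alone, and that spread may be technical.

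The plant primary wall is a network of cellulose microfibrils, xyloglucan and pectin that must yield before a cell can enlarge. Expansins are secreted proteins that loosen the wall at acid pH without cutting its polymers, XTH enzymes cut xyloglucan chains and join the cut ends to other chains, and xyloglucan itself is made in the Golgi on a glucan backbone laid down by CSLC synthases. *EXO* encodes a secreted protein known from leaves, where it is induced by brassinosteroid and promotes cell expansion. In a germinating seed, water uptake is followed by elongation of the embryo axis and by weakening of the endosperm in front of the radicle, and wall genes are active in both tissues.

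Values are linear array intensities, which have no scale shared between probe sets, so levels of different genes were not set against each other. Array medians lay between 19.63 and 36.44 and rose with each stage, and upper quartiles lay between 234 and 258. At the first 3 stages the tim17-1 medians lay below those of WT without overlap. They were 19.63 to 20.3 against 20.61 to 20.78 at 0 h, and 26.335 to 27.635 against 28.2 to 29.855 at 48 h S. At 6 h SL they were 30.975 to 31.275 against 31.965 to 32.84. Fits after rescaling the arrays are described below. Replicate arrays differed by 0.108 to 0.244 log2 units (root mean square over 22746 probe sets). No detection call came with the values, so it is not known which low intensities stood above background. The 3 measured of 15 storage and oil body genes marked the samples as seed, with a summed intensity of 33033 to 35142 over the dry arrays. The sum fell stepwise to 1420 to 2072 at 24 h SL, and most of it came from AT3G01570 (25159 in WT dry seed, 1048 at WT 24 h SL). *OLEO3* did not fall stepwise. It read 1955, 426, 608 and 556 at the successive stages in WT and 2078, 368, 608 and 615 in tim17-1. The 2 measured seed coat genes summed to no more than 15.2 on any array. No gene of the endosperm list had a probe set with a single annotated gene, so the share of each seed tissue is unknown. Changes are differences of log2(intensity + 16) with their standard error, n = 3 arrays per group, tested with limma in 1 model of all arrays. A change was called at a Benjamini-Hochberg adjusted p under 0.05 over all 22746 probe sets, and the offset of 16 understates changes of weak signals.

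From dry to imbibed seed all 6 genes gained signal. *EXPA8* and *XTH19* were near their final level after 48 h of cold and dark, *CSLC04* took its largest step in the first 6 h of light, and *XTH33* took its largest step in the last interval. *EXPA4* and *EXO* climbed at every stage in both genotypes. In tim17-1, *EXPA4*, *CSLC04* and *EXO* were lower than in WT at some stages and no member was called higher at any. In whole-seed RNA, fewer cells of a type and less RNA per cell cannot be told apart.

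**Figure D1:**
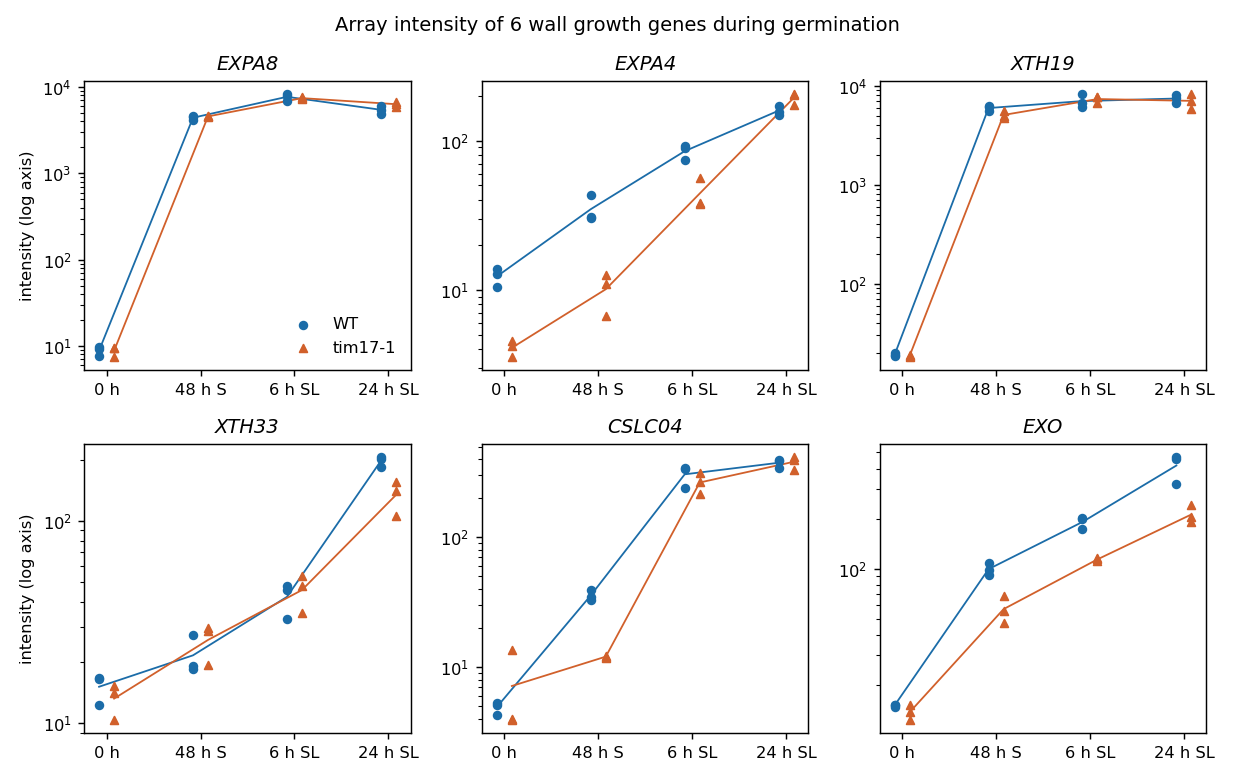
Array intensity (log axis) of each of the 6 genes at the 4 stages, with a point for each array, WT in blue circles and tim17-1 in orange triangles, and lines through the means of 3 arrays. *EXPA8* and *XTH19* lie at 4176 or more at 48 h S in both genotypes, while the tim17-1 points of *EXPA4* lie below WT at the first 3 stages and above WT at 24 h SL, and those of *EXO* lie below WT at the last 3 stages.

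*EXPA8*, an alpha-expansin, had intensities of 9.13, 9.74 and 7.73 in WT dry seed and of 9.6, 7.46 and 9.47 in tim17-1 dry seed. After stratification the arrays read 4176, 4569.8 and 4507 in WT and 4579, 4511 and 4637 in tim17-1. Every stratified array thus lay far above every dry one, and the genotypes overlapped. The change was 7.48 ± 0.0727 in WT (limma, adjusted p = 4.77e-22) and 7.53 ± 0.0727 in tim17-1 (adjusted p = 3.98e-22), on a scale where dry seed sits near the offset.

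The level of *EXPA8* was highest after 6 h of light, at 6899, 8279.9 and 7978 in WT and 7393, 7659.9 and 7307 in tim17-1, and the genotypes overlapped again. At 24 h SL it was 4945, 6063 and 5376 in WT and 6383, 6769.8 and 5865 in tim17-1. The fall from 6 h to 24 h of light was -0.50 ± 0.0727 in WT (adjusted p = 1.27e-05) and -0.24 ± 0.0727 in tim17-1 (adjusted p = 0.013). *EXPA8* was the only member with a fall that was called at any step. The fall in tim17-1 was not called without replicate 3 of tim17-1 24 h SL (-0.18, adjusted p = 0.0801) or with cyclic loess scaling (-0.02, adjusted p = 0.823), and it missed the threshold with log2(value + 1) (adjusted p = 0.0545). The step did not differ by test between genotypes (difference 0.26 ± 0.103, 95% interval 0.05 to 0.48, adjusted p = 0.344). At 24 h SL itself tim17-1 stood at 116% of WT (0.22 ± 0.0727, adjusted p = 0.123), a difference that was called only without replicate 2 of WT 24 h SL (0.29, adjusted p = 0.0273).

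*EXPA4*, an alpha-expansin of the same family, was weak in dry seed, at 12.71, 13.71 and 10.49 in WT and 4.55, 4.18 and 3.55 in tim17-1. At 48 h S the arrays read 30.29, 43.15 and 30.63 in WT and 11, 6.68 and 12.63 in tim17-1. At both stages all mutant arrays lay below all WT arrays, and the mutant arrays after stratification overlapped those of WT dry seed. At 6 h SL the values were 88.78, 91.97 and 73.82 in WT and 56.39, 37.85 and 38.31 in tim17-1, again without overlap. At 24 h SL the order was turned, with 147.8, 171.3 and 156.1 in WT and 204.3, 173.2 and 200.3 in tim17-1. The mutant mean was 33.3%, 29.1%, 52.1% and 122% of the WT mean at the successive stages.

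As log2 changes, tim17-1 minus WT for *EXPA4* was -0.49 ± 0.12 at 0 h (limma, adjusted p = 0.0268), -0.95 ± 0.12 at 48 h S (adjusted p = 0.000493), -0.75 ± 0.12 at 6 h SL (adjusted p = 0.00315) and 0.26 ± 0.12 at 24 h SL (adjusted p = 0.356). *EXPA4* was therefore called lower at the first 3 stages, and its higher mutant level at the last was not called. At 48 h S it ranked as the 3rd lowest change of all 22746 probe sets. The dry-seed call is the least firm of the 3: it was lost without replicate 1 (adjusted p = 0.0685) or 2 of WT 0 h (0.0846) and without replicate 2 (0.0643) or 3 of tim17-1 0 h (0.0773), and fell to -0.16 with an offset of 64. In the same dry samples the 3 measured of 12 pollen marker genes summed to 348 to 388 in WT and to 40.28 to 144 in tim17-1, none listed at 0, against 12.6 to 13.9 on all imbibed arrays. The difference of the ubiquitin control's 3′ and 5′ probe sets was -0.21 ± 0.0265 (SD) in WT and -0.34 ± 0.0614 in tim17-1 dry seed, without overlap, and at 6 h SL that of the GAPDH control was -0.16 ± 0.0443 and -0.01 ± 0.068, also without overlap. The part of these in the *EXPA4* differences at 0 h and 6 h SL was not tested. At 48 h S the pollen sums were 13.1 to 13.7 in WT and 13.5 to 13.9 in tim17-1.

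*EXPA4* rose in WT by 0.83, 1.00 and 0.79 at the successive steps, each ± 0.12 (adjusted p = 6.56e-06, 1.83e-06 and 1.94e-05). In tim17-1 it rose by 0.37, 1.20 and 1.80 (adjusted p = 0.0127, 2.01e-07 and 5.15e-10). The first of these mutant steps was not called without replicate 3 of tim17-1 48 h S (0.30, adjusted p = 0.0672), with cyclic loess scaling (0.24, adjusted p = 0.0912) or with an offset of 64 (0.12, adjusted p = 0.144). The last step was larger in tim17-1 than in WT by 1.01 ± 0.17 (adjusted p = 0.0031), and only 4 of the 22746 probe sets had a higher value of that difference.

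*XTH19*, which encodes a wall enzyme of the XTH family, read 19.22, 19.8 and 18.4 in WT and 18.8, 18.15 and 19.13 in tim17-1 dry seed. At 48 h S it read 5584, 6216 and 6122 in WT and 5545, 4950.3 and 4759 in tim17-1. The rise was 7.41 ± 0.112 in WT (adjusted p = 1.38e-19) and 7.20 ± 0.112 in tim17-1 (adjusted p = 1.77e-19). At that stage all mutant arrays lay below all WT arrays, at 85.1% of the WT mean, and the difference of -0.23 ± 0.112 was not called (adjusted p = 0.419).

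In light *XTH19* stayed within 5883 to 8248 over all 12 arrays, and the genotypes overlapped at both stages. The step from 48 h S to 6 h SL was called in tim17-1 (0.53 ± 0.112, adjusted p = 0.000789) and not in WT (0.22 ± 0.112, adjusted p = 0.146), and the difference between these steps was not called (0.31 ± 0.159, 95% interval -0.03 to 0.64, adjusted p = 0.596). From 6 h to 24 h of light the changes were 0.09 in WT and -0.07 in tim17-1 (adjusted p = 0.541 and 0.639). With cyclic loess scaling the WT step was called (0.34, adjusted p = 0.0189).

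*XTH33* encodes an XTH that is held at the plasma membrane. In dry seed it read 12.32, 16.69 and 16.48 in WT and 10.41, 14.09 and 15.24 in tim17-1. After stratification the values were 27.23, 19.27 and 18.56 in WT and 28.67, 29.44 and 19.42 in tim17-1, and at 6 h SL 32.95, 47.96 and 45.7 in WT and 35.25, 53.83 and 47.8 in tim17-1. The genotypes overlapped at these 3 stages. At 24 h SL the arrays read 207.9, 185.2 and 202.3 in WT and 106.2, 140.9 and 156.7 in tim17-1, and every mutant array lay below every WT array.

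The last step of *XTH33* was 1.89 ± 0.146 in WT (adjusted p = 3.68e-09) and 1.29 ± 0.146 in tim17-1 (adjusted p = 6.34e-07), and the difference between the steps was not called (-0.60 ± 0.207, adjusted p = 0.234). At 24 h SL tim17-1 stood at 67.8% of WT, a change of -0.52 ± 0.146 that just missed the threshold (95% interval -0.83 to -0.22, adjusted p = 0.0518). It passed in several other settings, among them an offset of 64 (-0.41, adjusted p = 0.00638), cyclic loess scaling (-0.57, adjusted p = 0.0299) and the fit without replicate 3 of tim17-1 24 h SL (-0.63, adjusted p = 0.0339). Leaving out replicate 1 of WT 48 h S (adjusted p = 0.049), replicate 3 of tim17-1 48 h S (0.0432), replicate 1 of WT 6 h SL (0.041) or replicate 1 of tim17-1 6 h SL (0.0379) also brought it under the threshold at an unchanged -0.52. Before that stage *XTH33* rose in both genotypes from 48 h S to 6 h SL, by 0.62 in WT (adjusted p = 0.00191) and 0.56 in tim17-1 (adjusted p = 0.00496). The mutant call was lost with quantile scaling (0.39, adjusted p = 0.0825).

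*CSLC04* encodes the glucan synthase of the xyloglucan backbone. It read 5.31, 5.13 and 4.3 in WT and 3.92, 3.97 and 13.53 in tim17-1 dry seed, where 1 mutant array stood apart at a low level. After stratification the WT arrays had reached 34.8, 39.03 and 33.09, while the tim17-1 arrays read 12.25, 11.79 and 12.03. The 3 mutant arrays lay close together and at 33.7% of the WT mean. At 6 h SL the values were 239.7, 338.3 and 339.2 in WT and 216.3, 310.7 and 266.3 in tim17-1, and at 24 h SL 339.5, 397.3 and 389.1 in WT and 331.2, 416.7 and 397.4 in tim17-1. The genotypes overlapped at both light stages.

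*CSLC04* was lower in tim17-1 at 48 h S by -0.88 ± 0.152 (limma, adjusted p = 0.00778), the 10th lowest change of all probe sets, and was not called at 0 h (0.12), 6 h SL (-0.20) or 24 h SL (0.02). The call was lost with an offset of 64 (-0.39, adjusted p = 0.0966) and kept without any single array. During stratification *CSLC04* rose in WT by 1.30 ± 0.152 (adjusted p = 4.34e-07), and its change of 0.30 ± 0.152 in tim17-1 was not called (adjusted p = 0.0969). The mutant step was called without replicate 3 of tim17-1 0 h (0.49, adjusted p = 0.006), the array with the reading of 13.53, and with log2(value + 1) (0.88, adjusted p = 0.011). With a filter on low values it was called at an unchanged 0.30 (adjusted p = 0.0482). The steps differed between genotypes by -1.0 ± 0.215 (adjusted p = 0.0157), a difference lost only with the offset of 64 (-0.43, adjusted p = 0.168). In the first 6 h of light *CSLC04* rose by 2.62 ± 0.152 in WT (adjusted p = 1.44e-10) and by 3.31 ± 0.152 in tim17-1 (adjusted p = 7.82e-12). The difference of 0.68 ± 0.215 between these rises was not called (95% interval 0.23 to 1.14, adjusted p = 0.197). In the last interval it rose in tim17-1 (0.51, adjusted p = 0.00981) and was not called in WT (0.30, adjusted p = 0.13), where it was called with cyclic loess scaling (0.45, adjusted p = 0.0162). That mutant call was lost without replicate 1 of tim17-1 6 h SL (0.38, adjusted p = 0.0686) and with log2(value + 1) (0.54, adjusted p = 0.135), and the steps did not differ by test (0.22 ± 0.215, adjusted p = 1).

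*EXO* read 15.09, 15.17 and 14.75 in WT and 13.65, 14.99 and 12.29 in tim17-1 dry seed, with overlap. At 48 h S the values were 107.9, 98.03 and 91.47 in WT and 55.77, 46.97 and 68.13 in tim17-1. At 6 h SL they were 200.6, 173.6 and 197.9 in WT and 113.9, 116.1 and 110.8 in tim17-1. At 24 h SL they were 323, 457.9 and 470.1 in WT and 189.4, 203.1 and 242.4 in tim17-1. At the 3 imbibed stages all mutant arrays lay below all WT arrays, at 57.5%, 59.6% and 50.8% of the WT mean.

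*EXO* was lower in tim17-1 by -0.67 ± 0.12 at 48 h S (limma, adjusted p = 0.0106), -0.67 ± 0.12 at 6 h SL (adjusted p = 0.00817) and -0.92 ± 0.12 at 24 h SL (adjusted p = 0.000117), and was not called in dry seed (-0.07, adjusted p = 0.921). The call at 48 h S was lost without replicate 1 of WT 48 h S (-0.61, adjusted p = 0.0526) or replicate 2 of tim17-1 48 h S (-0.56, adjusted p = 0.0602). At 6 h SL the GAPDH 3′ and 5′ difference given above for *EXPA4* also lay apart between genotypes. *EXO* rose in WT by 1.89, 0.84 and 1.05 at the successive steps (adjusted p = 8.17e-11, 1.37e-05 and 6.71e-07) and in tim17-1 by 1.29, 0.84 and 0.81 (adjusted p = 2.08e-08, 1.53e-05 and 1.77e-05). The difference between genotypes in the first step, -0.60 ± 0.17, was not called (adjusted p = 0.0742). It was called without replicate 3 of tim17-1 48 h S (-0.71, adjusted p = 0.0293) or replicate 1 of WT 24 h SL (-0.60, adjusted p = 0.0186).

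Counted over the genes, 1 of 6 (*EXPA4*) was lower in tim17-1 at 0 h, where 3.65% of all probe sets were called. At 48 h S 3 of 6 were lower (*EXPA4*, *CSLC04* and *EXO*) against 1.23% of all probe sets called. At 6 h SL 2 of 6 were lower (*EXPA4* and *EXO*) against 1.28%, and at 24 h SL 1 of 6 (*EXO*) against 4.32%. The share called lower over all probe sets was 2.33%, 0.87%, 0.769% and 2.73% at these stages. Since the genes were chosen with earlier results of these data known, these counts and those below do not test for an excess. The median change of the 6 genes was -0.04, -0.45, -0.12 and -0.03, beside medians of all probe sets within 0.008 of 0. Arrays of the genotypes did not overlap for 1, 4, 2 and 3 of the 6 genes, beside 12.7%, 18.6%, 14.9% and 16.4% of all probe sets. Fitted on the 6 arrays of each stage alone, *CSLC04* at 48 h S kept its call. The other 6 genotype calls were lost there at unchanged sizes, with adjusted p = 0.064, 0.069 and 0.241 for *EXPA4* at 0 h, 48 h S and 6 h SL and 0.0955, 0.104 and 0.215 for *EXO* at 48 h S, 6 h SL and 24 h SL. Over all probe sets these stage-wise fits called 0 at 6 h SL and 4 at 24 h SL, so few calls could be kept at those stages.

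Averaged over the 4 stages, *EXO* (-0.58 ± 0.0602, adjusted p = 1.97e-05) and *EXPA4* (-0.49 ± 0.06, adjusted p = 0.000115) were lower in tim17-1, 2 of 6 against 4.19% of all probe sets called and 3.08% called lower. *CSLC04* was not called on that average (-0.23 ± 0.0759, adjusted p = 0.106). It was called over the 3 imbibed stages alone (-0.35, adjusted p = 0.0331), an average chosen after the data were seen, and also without replicate 3 of tim17-1 0 h (-0.28, adjusted p = 0.0179) or replicate 1 of WT 6 h SL (-0.27, adjusted p = 0.0385). The filter on low values also called the average of *CSLC04* over the 4 stages, at an unchanged -0.23 (adjusted p = 0.0461). *EXPA8* (0.06), *XTH19* (-0.07) and *XTH33* (-0.10) were not called.

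**Figure D2:**
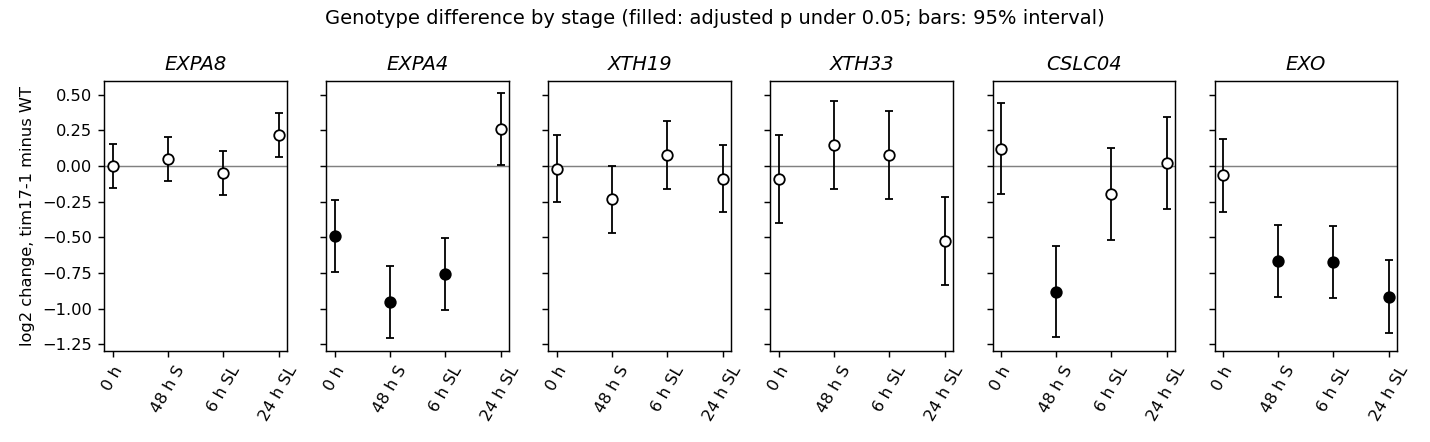
Difference between genotypes (tim17-1 minus WT, log2 of intensity + 16) for each gene and stage, with 95% intervals and filled points where the adjusted p was under 0.05. Filled points stand at 3 stages for *EXPA4*, at 3 for *EXO* and at 48 h S for *CSLC04*, and all 7 lie below 0.

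Between stages, 5 of 6 genes rose from 0 h to 48 h S in WT, all but *XTH33* (0.27, adjusted p = 0.105), while 73.1% of all probe sets were called and 28.4% were higher. In tim17-1 5 of 6 rose, all but *CSLC04*, beside 59.7% called and 26.8% higher. *XTH33* rose there by 0.51 (adjusted p = 0.00561), and its WT step was called with log2(value + 1) (0.48, adjusted p = 0.0467). From 48 h S to 6 h SL 5 of 6 rose in WT, all but *XTH19*, beside 37.7% called and 19.4% higher. All 6 rose in tim17-1, beside 38.2% called and 18.9% higher. *EXPA8* was among them in both genotypes, with 0.80 in WT (adjusted p = 5.55e-08) and 0.70 in tim17-1 (adjusted p = 3.12e-07).

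From 6 h to 24 h of light 3 genes rose and *EXPA8* fell in WT, 4 of 6 called beside 45.6% of all probe sets (20.5% higher, 25.1% lower). In tim17-1 4 rose and *EXPA8* fell, 5 of 6 called beside 43.2% (20.7% higher, 22.5% lower). With such shares of all probe sets called, a call alone sets no gene apart. By size, the rises of *EXPA8* and *XTH19* during stratification lay at the 99.94th to 99.97th percentile of all changes, and the rise of *CSLC04* in early light lay at the 99.67th percentile in WT and the 99.89th in tim17-1. The 3′ and 5′ difference of the ubiquitin control moved from 0 h to 48 h S, from -0.21 to 0.12 in WT and -0.34 to 0.19 in tim17-1. For GAPDH it was 0.03 in WT at both stages and moved from -0.07 to 0.15 in tim17-1, without overlap. From 48 h S to 6 h SL the GAPDH difference moved to -0.16 in WT, without overlap, and to -0.01 in tim17-1, with overlap. For actin it moved from 6 h SL to 24 h SL, from 1.32 to 1.58 in WT and 1.32 to 1.63 in tim17-1. The part of these in the steps was not tested.

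**Figure D3:**
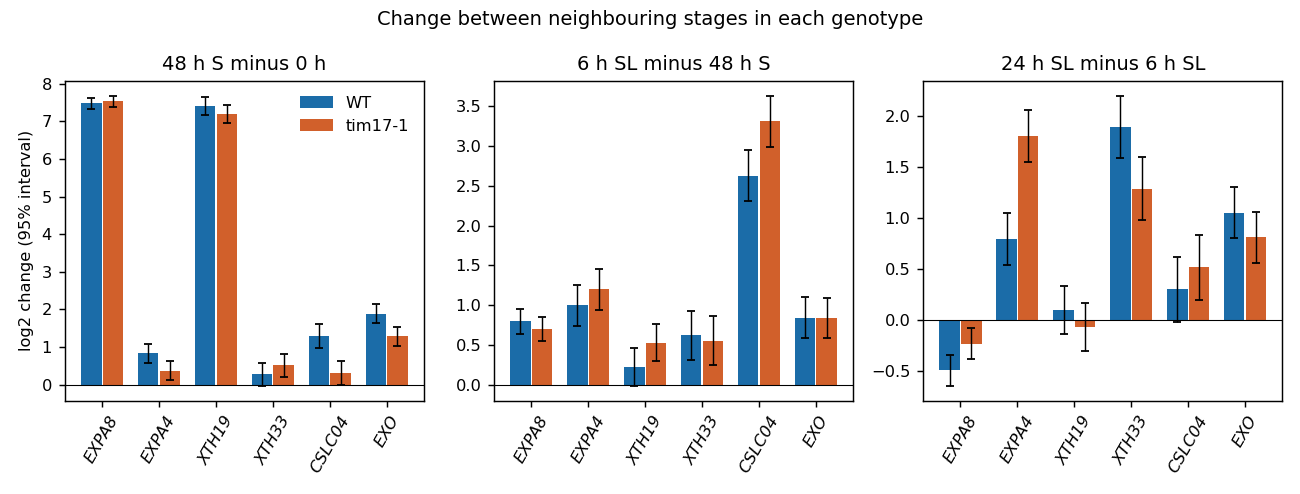
Change of each gene between successive stages (log2 of intensity + 16) with 95% intervals, WT in blue and tim17-1 in orange, with a separate vertical scale for each step. The stratification step is near 7 for *EXPA8* and *XTH19* and under 2 for the other genes, the first 6 h of light are led by *CSLC04*, and the last step is led by *XTH33* in WT and *EXPA4* in tim17-1.

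Tests of whether a step differed between genotypes called *CSLC04* in the first (1 of 6, beside 2.68% of all probe sets), no gene in the second (beside 0.717%) and *EXPA4* in the third (1 of 6, beside 1.53%). In the second step *CSLC04* had the only unadjusted p under 0.05, and it was called with array weights (0.72, adjusted p = 0.0141). The genotype difference itself moved between 48 h S and 24 h SL, a comparison added after the data were seen, for *EXPA4* by 1.21 ± 0.17 (adjusted p = 0.000461) and for *CSLC04* by 0.90 ± 0.215 (adjusted p = 0.0265), 2 of 6 beside 3.12%. Both had been low in stratified mutant seed and were level with or above WT a day after the move to light. The *CSLC04* value lost its call without any of 7 single arrays of these groups: replicate 1 (0.91, adjusted p = 0.0558) or 2 of WT 48 h S (0.85, 0.0723), replicate 1 (0.91, 0.0537) or 2 of tim17-1 48 h S (0.89, 0.0597), replicate 1 of WT 24 h SL (0.83, 0.0673), and replicate 2 (0.84, 0.0553) or 3 of tim17-1 24 h SL (0.87, 0.0595). It also lost the call with an offset of 64 (0.41, adjusted p = 0.207) and with quantile scaling (0.84, adjusted p = 0.071). For *EXO* the genotype difference changed by -0.25 ± 0.17 (95% interval -0.61 to 0.11, adjusted p = 0.627), and for *XTH33* by -0.67 ± 0.207 (adjusted p = 0.0985), neither called. The *XTH33* value was called with array weights (-0.75, adjusted p = 0.018), an offset of 64 (-0.48, adjusted p = 0.0337) and the filter on low values (-0.67, adjusted p = 0.0484).

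Ranked by mean level, the 8 groups of *EXO* ran from dry seed of both genotypes through tim17-1 48 h S, WT 48 h S, tim17-1 6 h SL, WT 6 h SL and tim17-1 24 h SL to WT 24 h SL. The only neighbours in this order whose arrays overlapped were the dry groups and the pair of WT 6 h SL and tim17-1 24 h SL. *EXO* in mutant seed after 24 h of light (189 to 242) thus overlapped WT seed after 6 h (174 to 201). For *EXPA4* the order was tim17-1 0 h, tim17-1 48 h S, WT 0 h, WT 48 h S, tim17-1 6 h SL, WT 6 h SL, WT 24 h SL and tim17-1 24 h SL. Here mutant seed at 48 h S overlapped WT seed at 0 h, and mutant seed at 6 h SL overlapped WT seed at 48 h S. For *XTH19* the last 5 groups in the order, from WT 48 h S upwards, each overlapped the next. For *CSLC04* the arrays of tim17-1 48 h S, those of WT 48 h S and those of the 4 light groups lay in separate ranges. For *EXPA8* and *XTH33* each pair of genotypes at one stage were neighbours, and of these only the *XTH33* pair at 24 h SL did not overlap.

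The gene families around the 6 members were measured only in part. Of 36 expansin family genes 18 had a probe set with a single gene, of 33 *XTH* genes 10, of 17 genes of xyloglucan synthesis and trimming 5 (all *CSLC*), of 10 cellulose synthesis genes 1, and of 8 *EXORDIUM* family genes only *EXO*. No gene of the mannan or brassinosteroid lists had such a probe set. The annotation had no entry for 8730 probe sets, so the array may still carry probe sets for genes counted here as not measured. Among the 18 expansin genes, 1 was lower in tim17-1 at 0 h, 3 at 48 h S, 1 at 6 h SL and 1 at 24 h SL, with none higher, beside 2.33%, 0.87%, 0.769% and 2.73% of all probe sets called lower. Their median change lay within 0.008 of 0 at every stage, as most had low, flat signals.

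Besides *EXPA4*, the expansins called at 48 h S were *EXLA1*, an expansin-like gene, and *EXPA9*. *EXLA1* ran against the members, from 1941 ± 80.4 (SD) in WT and 2079 ± 147 in tim17-1 dry seed down to 98.8 ± 11.8 and 51.7 ± 19 at 48 h S. It was lower in tim17-1 at 48 h S (-0.80 ± 0.161, adjusted p = 0.0188) and at 24 h SL (-0.79 ± 0.161, adjusted p = 0.00667), where it read 149 ± 9.55 and 80.2 ± 13.3. The first of these calls was lost without replicate 2 (-0.73, adjusted p = 0.0974) or 3 of WT 48 h S (-0.79, adjusted p = 0.0578). *EXPA9* rose at every step, from 9.57 ± 1.99 to 9538 ± 320 in WT and from 8.62 ± 1.23 to 9592 ± 938 in tim17-1. Its difference at 48 h S (-0.41 ± 0.0869, adjusted p = 0.026) was lost without replicate 2 of WT 48 h S (-0.33, adjusted p = 0.145), replicate 1 of tim17-1 48 h S (-0.36, adjusted p = 0.112) or replicate 2 of tim17-1 48 h S (-0.43, adjusted p = 0.0667), and also with quantile scaling (-0.39, adjusted p = 0.0662) and log2(value + 1) (-0.42, adjusted p = 0.127).

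Of the 10 *XTH* genes, 1 was lower in tim17-1 at 0 h, 0 were called at 48 h S, 1 was lower at 6 h SL and 4 were lower at 24 h SL, with none higher, beside the same shares of all probe sets called lower (2.33%, 0.87%, 0.769% and 2.73%). None of these was *XTH19* or *XTH33*, and 0 of the 10 had an unadjusted p under 0.05 at 48 h S. At 24 h SL *XTH18* read 422 ± 52.1 (SD) in WT and 205 ± 68.5 in tim17-1 (-1.03 ± 0.151, adjusted p = 0.000332), and *XTH16* read 1758 ± 53 and 1136 ± 215 (-0.64 ± 0.121, adjusted p = 0.0038). *XTH32* was at 37.8 ± 7.35 and 13.9 ± 7.57 (-0.87 ± 0.165, adjusted p = 0.00364) and *EXGT-A3* at 641 ± 67.3 and 484 ± 10.6 (-0.39 ± 0.076, adjusted p = 0.00459). The median of the 10 genes was -0.24 at that stage, beside 0.002 for all probe sets. *XTH18* stayed between 7.61 and 9.7 on every array up to 6 h SL. It is a close relative of *XTH19*, which read 4759 to 8248 over the arrays of 48 h S and 6 h SL. Whether their probe sets share signal was not tested. *XTH16* was also lower at 6 h SL (-0.58 ± 0.121, adjusted p = 0.0248), a call lost without replicate 1 of WT 6 h SL (-0.61, adjusted p = 0.0679), replicate 3 of WT 6 h SL (-0.50, adjusted p = 0.129) or replicate 1 of tim17-1 6 h SL (-0.51, adjusted p = 0.129). *EXGT-A3* was lower in dry seed (-0.44 ± 0.076, adjusted p = 0.00192). The differences between genotypes given above for *EXPA4* lie in the same arrays: pollen sums and the ubiquitin control at 0 h, and the GAPDH control at 6 h SL. Their part in the *EXGT-A3* and *XTH16* differences at those stages was not tested. In the fit of each stage alone none of these calls of *EXLA1*, *EXPA9* and the *XTH* genes was made, with adjusted p from 0.116 to 0.304. That fit called 0 of all probe sets at 6 h SL and 4 at 24 h SL.

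The 5 *CSLC* genes held 1 genotype call at any single stage, that of *CSLC04* at 48 h S. *CSLC5* fell during stratification in both genotypes, by -0.73 in WT (adjusted p = 1.55e-05) and by -1.09 in tim17-1 (adjusted p = 8.24e-08), and again in early light. *CSLC6* rose in the last interval, by 0.90 in WT (adjusted p = 1.99e-05) and by 1.32 in tim17-1 (adjusted p = 1.9e-07). *COB*, which encodes a cell surface protein needed for oriented cellulose deposition, rose only in that interval, from 329 ± 53.8 to 915 ± 26.5 in WT and from 297 ± 10.8 to 815 ± 62.1 in tim17-1, and was not called between genotypes.

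**Figure D4:**
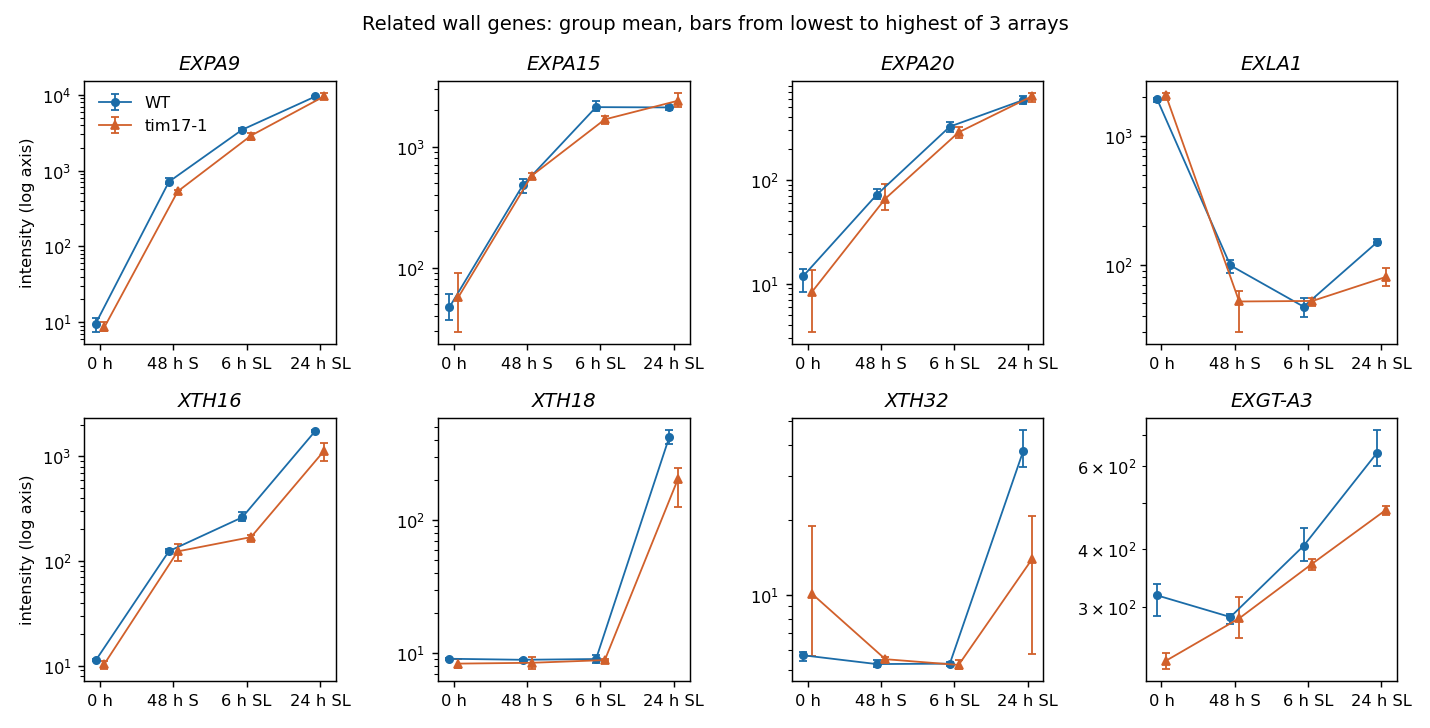
Mean intensity (log axis) of 8 relatives of the 6 genes at the 4 stages, with bars from the lowest to the highest of 3 arrays, WT in blue and tim17-1 in orange. *EXLA1* falls by a factor of more than 10 from dry to stratified seed while the other expansins climb, and *XTH16*, *XTH18*, *XTH32* and *EXGT-A3* lie lower in tim17-1 at 24 h SL.

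Across the 24 arrays the profiles of *EXPA8* and *XTH19* ran closest among the 6 genes (Pearson r = 0.998 on the log2 scale), and *EXPA4* ran closest to *EXO* (0.916) and *CSLC04* (0.914). These coefficients describe arrays that share stages. Over deviations from the group means the same 3 pairs gave 0.23, 0.28 and -0.28. Likeness was sought among 6043 other genes whose mean over all arrays lay above that of the median probe set, so weaker genes were left out. Among these the profile most like each member was that of AT4G16720 for *EXPA8* (r = 0.999), AT5G01870 for *EXPA4* (0.973), AT4G17390 for *XTH19* (0.998), AT5G04830 for *XTH33* (0.982), AT3G22550 for *CSLC04* (0.99) and AT3G54400 for *EXO* (0.975). The next in line were AT3G05560 and AT3G53430 for *EXPA8*, AT2G43640 and AT5G39570 for *EXPA4*, AT1G09390 and AT5G02450 for *XTH19*, AT5G26280 and *UGT74D1* for *XTH33*, *EMB2786* and AT3G15720 for *CSLC04*, and AT5G39580 and AT3G01720 for *EXO*, with r between 0.969 and 0.999.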

How the data were processed

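Total RNA from 80 mg of seed was labelled with biotin, starting from 400 ng per sample, and hybridised to single-colour Affymetrix arrays, per the labels' protocols. The authors deposited 1 table of linear intensity values with a column per array; MAS5, RMA and Partek are named in the submitters' processing notes, but the role of each and the scaling between arrays are not given in the sources used here. Intensities were used as deposited. The 64 control probe sets were left out of all tests. Genes were named through the platform annotation, updated with a gene list of assembly GCF_000001735.4; 1 gene was given for 13513 probe sets, several for 503 and no entry for 8730.

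In R 4.3.3, limma (version 3.58.1) fitted 8 group means to log2(intensity + 16) over 24 arrays (16 residual degrees of freedom) with empirical Bayes moderation, and the procedure was tested on simulated data. Precision is limited by having 3 arrays in a group, and an exact permutation test of 3 against 3 cannot go below p = 0.1. The alternatives were other offsets, cyclic loess and quantile scaling, a filter on low values, array weights, a trend with robust moderation, a replicate block, stage-wise fits and leaving out each array. Over all probe sets, same-numbered arrays of both genotypes did not deviate together (r from -0.26 to 0.09), so the numbers were not treated as pairs. Single genes could differ from this. At 6 h SL replicate 1 was the lowest array of both genotypes for *XTH19*, *XTH33* and *CSLC04*, and not for *EXPA8*, *EXPA4* and *EXO*. The 6 genes, the 11 gene lists and the tests were chosen with earlier results of these data known. Besides the 6 genes, the rule names, from each wall list and comparison, every called gene if 4 or fewer, otherwise the 2 largest rises and 2 largest falls (a choice of these is printed), and for each member the 3 most alike genes over 24 arrays. The alike genes were taken only from those with a mean above the median probe set. Sequences of promoters and proteins were not used here.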

Additional observations from a re-analysis of the deposited data

Results flagged for a closer look

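The change of 2 of the 6 genes between stages differed between genotypes by a test of the difference itself (limma, 3 arrays per group). *CSLC04* changed less in tim17-1 than in WT from dry to stratified seed, with a difference of steps of -1.0 ± 0.215 (adjusted p = 0.0157). *EXPA4* rose more in tim17-1 than in WT from 6 h to 24 h of light, by 1.01 ± 0.17 (adjusted p = 0.0031). Between 48 h S and 24 h SL, a comparison added after the data were seen, the genotype difference moved by 1.21 ± 0.17 for *EXPA4* (adjusted p = 0.000461) and by 0.90 ± 0.215 for *CSLC04* (adjusted p = 0.0265). With an offset of 64 both *CSLC04* differences lost their call (-0.43, adjusted p = 0.168, and 0.41, adjusted p = 0.207), and the second also lost it with quantile scaling (0.84, adjusted p = 0.071) and without any of 7 single arrays (0.83 to 0.91). These comparisons share arrays, so the values of a gene are not independent of each other.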

How the results depend on the processing

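Of 2910 values for the 6 genes under the alternatives, 2818 kept their direction and their side of the threshold, 34 lost a call, 28 gained one and 30 changed sign, and where no value shows it the cause was not tested. The fit of a single stage has fewer degrees of freedom and takes the spread from its own arrays. It called 0, 1, 0 and 0 of the 6 genes at 0 h, 48 h S, 6 h SL and 24 h SL, against 1, 3, 2 and 1. Over all probe sets it called 0 at 6 h SL and 4 at 24 h SL, against 291 and 983 in the main model. Its counts over all probe sets at 0 h and 48 h S are not given here. The main model pools the spread of all groups, so its standard error understates that of the widest groups. The SD of log2 values ran from 0.0104 (WT 0 h) to 0.29 (WT 24 h SL) for *EXO*. For *EXPA4* it ran from 0.0364 (tim17-1 0 h) to 0.243 (tim17-1 6 h SL). With an offset of 64, which shrinks weak signals, 0 were called at 0 h, 2 at 24 h SL and 0 for the difference of the first step. Array weights gave 0 at 0 h, 2 at 24 h SL and 1 for the difference of the second step. Cyclic loess scaling and the trended, robust moderation gave 2 at 24 h SL, as did the filter on low values, which also gave 2 for the difference of the first step. Quantile scaling gave 1 in place of 2 between 48 h S and 24 h SL, and log2(value + 1) gave 3 in place of 5 in the last mutant step. In the last WT step the alternatives gave 4 to 6 genes. Leaving out single arrays gave 0 to 1 genes at 0 h, 2 to 3 at 48 h S, 1 to 2 at 24 h SL, 1 to 2 for the difference of the first step and 1 to 2 between 48 h S and 24 h SL. The replicate block (a replicate number as a term) called 1, 3, 2 and 1 genes by stage and changed no count of members in the 15 comparisons.

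The changes of sign among the 6 genes concerned differences that were not called. Under cyclic loess these were *CSLC04* at 24 h SL (-0.0275), *EXPA8* at 0 h (0.00013) and the last *XTH19* step in tim17-1 (0.14). Quantile scaling turned *EXPA8* (0.0185) and *XTH19* (0.0154) at 0 h. For the difference of the second step, *EXO* turned with log2(value + 1) (0.0618) and array weights (0.0294) and *EXPA4* with an offset of 64 (-0.0512). Array weights turned *XTH19* between 48 h S and 24 h SL (-0.0035). Leaving out single arrays spanned 0 for *CSLC04* at 0 h (-0.0681 to 0.216) and 24 h SL (-0.0471 to 0.115), *EXPA8* at 0 h (-0.035 to 0.0391) and 6 h SL (-0.125 to 0.00635), *XTH19* at 6 h SL (-0.013 to 0.197), at 24 h SL (-0.206 to 0.0365) and in its last mutant step (-0.19 to 0.0526), *XTH33* at 6 h SL (-0.0396 to 0.207) and in the difference of the second step (-0.189 to 0.058), and *EXO* in that difference (-0.107 to 0.102). Of the relatives, scaling turned 2 small called steps of weak genes, *EXPA21* in tim17-1 (-0.0376; 0.00465 with cyclic loess) and *XTH21* in WT (-0.0343; 0.016 with cyclic loess, 0.0144 with quantile scaling), both from 0 h to 48 h S.

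Counts over all probe sets moved more: 831 genotype calls at 0 h ranged from 39 to 1176 over the alternatives, 280 at 48 h S from 101 to 4106, 291 at 6 h SL from 0 to 847 and 983 at 24 h SL from 4 to 1306. For the differences of successive steps, 610 ranged from 397 to 933, 163 from 63 to 1711 and 349 from 99 to 830, and 709 between 48 h S and 24 h SL from 448 to 1991. In WT 16625 calls from 0 h to 48 h S ranged from 9992 to 17470, of which 38.9% were higher as deposited and 55.7% with cyclic loess. Other probe sets of a gene could not be tried, since each of the 6 genes has 1 that is annotated to it alone. Motif searches and protein alignments were not run. No detection call shows which of the dry-seed values, low for all 6 genes, stood above background.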
